A study of Ipomoea batatas with 12 samples.

Results

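This account concerns heat added to drought in sweetpotato, read from the 6 of 12 libraries that were stressed by drought: 3 under drought and heat together (DH1 to DH3) and 3 under drought alone (DR1 to DR3). The question is what the heat changed in plants that were already short of water. All plants were the purple-fleshed cultivar Xuzishu 8 of Ipomoea batatas. They were first planted in a field, then dug out and moved to nutrient solution. Drought was imposed by PEG in that solution, in DH and in DR alike. The other 6 libraries, 3 of heat alone (HT) and 3 of unstressed plants (CK), entered the same fit and served as the measure of heat without drought. CK plants stood in another growth chamber, so that heat and chamber cannot be told apart between HT and CK. No temperature is stated for DR, so heat and chamber may be tied between DH and DR too. By the study's methods, leaf and storage root RNA went into each library in equal amounts, over all times of the treatment. Tissue was collected as 3 biological replications and the pooled libraries were made in triplicate, but how the replications map to the 3 libraries of a group is not stated, so p-values measure the spread between these libraries, which may be in part technical. Early and late effects, and leaf and root, are therefore 1 value.

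Plants answer heat by making heat shock proteins, chaperones that hold or refold other proteins, under the control of heat shock factors and coactivators such as MBF1C. Drought acts in large part through abscisic acid, with dehydration proteins, raffinose sugars and closed stomata, and both stresses slow photosynthesis and the synthesis of chlorophyll. Storage roots of sweetpotato lay down starch, and their RNA is here mixed with that of leaves, so that fewer cells of a type and less RNA per cell cannot be told apart.

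Values are FPKM, sequenced fragments scaled to gene length and library size, and differences are DH minus DR on log2(FPKM + 1), which understates the change of genes near 0. The tables list 50592 genes, and 12295 of them passed a filter (FPKM not under 1 in 3 or more libraries) and were tested. The file of DR2 lacks 1519 loci whose names begin with MSTRG, 1087 of them among the genes tested, and these were compared on DR1 and DR3 alone. A gene symbol was at hand for 228 genes, of which 203 were tested. The symbols come from genes that the study selected as changed on these same libraries, so that a direction among them is not independent evidence.

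The libraries of the 2 groups were not cleanly apart. Over 11208 genes with a value in every library, the correlation of log2 values was 0.86 to 0.89 among the DH libraries, while among the DR libraries it was 0.92 between DR2 and DR3 and only 0.79 and 0.80 between DR1 and these. DR1 lay closer to the DH libraries, with 0.87, 0.90 and 0.88. The highest correlation in the series, 0.96, joined DH2 to a library of heat alone, HT2. Whether libraries or pools were exchanged cannot be settled from these values, and every difference below takes the labels as given. The 10 most abundant genes took 57.0%, 89.7% and 77.4% of all FPKM in DH1, DH2 and DH3, against 54.9%, 75.3% and 57.4% in DR1, DR2 and DR3 (means 74.7% ± 16.5 and 62.5% ± 11.1, SD, n = 3 each, two-sided exact permutation p = 0.3, where 0.1 is the smallest that 3 against 3 can give). Genes with an FPKM above 0 numbered 21541, 12675 and 14485 in the DH libraries and 17300, 16553 and 23074 in the DR libraries (exact permutation p = 0.5). DH2 was thus the library most filled by few genes, and its values are low for most of the genes below.

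The tissue was checked with markers. The summed FPKM of 6 leaf marker genes (copies of CRD1, CHLH, GAPB and At1g32060 with a value in every library) was 88.9, 36.2 and 561 in DH1, DH2 and DH3, against 1147, 1430 and 3073 in DR1, DR2 and DR3, without overlap. For 5 storage root markers (BMY1, PHO1, SBE1, AGPS1 and DPEP), all of starch metabolism, it was 0.5, 7.03 and 28.8 in the DH libraries and 45.6, 6.45 and 12.9 in the DR libraries, with overlap. In CK it was 33.7, 104 and 1758, so that DR1 lay above the lowest CK library, and 2 of the 5 markers did not reach the level for testing. The leaf markers are genes of photosynthesis. Although equal amounts were mixed, the leaf share that reached each library is known from these transcripts alone, and a smaller share cannot be told apart from less of these transcripts per leaf cell.

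Few genes separated DH from DR. A gene was called where limma gave a Benjamini-Hochberg adjusted p under 0.05 and the log2 difference exceeded 1 in size. By this rule 0 genes (0%) were higher in DH and 5 genes (0.0407%) were lower. The count depended on the processing: 0 were lower with a pseudocount of 0.1, with no filter or with a mean FPKM of at least 5, and 293 lower and 8 higher with library weights. At an unadjusted p under 0.05, 30 genes (0.244%) were higher and 405 (3.29%) lower. The values leaned downward throughout: 3343 genes (27.2%) had a difference above 0 and 8944 of the 12295 below, and the median of all genes tested was -0.40. Among 11208 genes with a value in all 6 libraries, every DH library lay above every DR library for 53 genes (0.473%) and below for 1785 (15.9%). The downward lean was not seen under every scaling of the libraries, since the median over all genes was 0.02 after quantile scaling, and the medians of groups of genes below are to be read beside -0.40.

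Of the 5 genes that were called lower, 1 has a symbol. SHSP-2 (MSTRG.38747), a small heat shock protein, had 3.16, 1.04 and 4.81 FPKM in DH1, DH2 and DH3, against 79.8 and 152 FPKM in DR1 and DR3, with no value in DR2. It was listed at 0 in all HT and all CK libraries, so that within this series the transcript was seen under drought only, and less of it when heat was added (difference -4.92 ± 0.92 SE, limma adjusted p = 0.0453). A second SHSP-2 locus (MSTRG.4626) had 45.5, 5.4 and 18.7 FPKM in the DH libraries and 238 and 405 FPKM in DR1 and DR3, with at most 0.17 FPKM in any HT or CK library, and missed the threshold (-4.11 ± 1.01, limma adjusted p = 0.264). If the loci are near-identical copies, reads may have been split between them.

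The other 4 called genes carry no symbol and are named because they are so few. G3755 was the most abundant, at 30.4, 10.3 and 52.3 FPKM in DH1, DH2 and DH3 and 1704, 2938 and 4924 FPKM in DR1, DR2 and DR3, a 109-fold lower level on the FPKM + 1 scale (-6.77 ± 1.27 SE, limma adjusted p = 0.0453). In its case CK was not low, with 1050, 539 and 11.4 FPKM, and HT had 131, 29.8 and 201 FPKM. G30899 had 1.31, 0 and 1.47 FPKM in the DH libraries and 393, 188 and 35.5 FPKM in the DR libraries, and no more than 6.55 FPKM in any HT or CK library (-6.29 ± 1.03, adjusted p = 0.0273).

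G34785 was listed at 0 in all DH, HT and CK libraries and at 8.81, 4.79 and 23.5 FPKM in DR1, DR2 and DR3 (adjusted p = 0.0368 by limma). It passed the filter on low values only through the 3 DR libraries, the group where it is high, so its call carries no weight of its own. MSTRG.45150 had 2.28, 0.13 and 0.88 FPKM in the DH libraries and 27.1 and 176 FPKM in DR1 and DR3, and was at 0 in HT and CK (-5.21 ± 0.92, adjusted p = 0.0368). It reached 1 FPKM only in DH1, DR1 and DR3, so it too needed the DR libraries to pass the filter. With G34785 included, 4 of the 5 called genes had at most 6.55 FPKM in any library without drought. Being higher under drought alone than under drought with heat is what the call itself selects. The share of all genes tested with such low levels in HT and CK was not counted, so no pattern is read from these 4. Groups at 0 throughout add no spread to the estimate shared by all groups: in a fit of the DH and DR libraries alone, G3755 and G30899 passed (adjusted p = 0.0142 and 0.0412), while SHSP-2 (MSTRG.38747), MSTRG.45150 and G34785 did not (0.131, 0.141 and 0.198). The number called lower was 0 when any one of DH1, DH2, DH3 or HT1 was left out, and 1 when any one of DR1, DR2, DR3 or CK2 was, whereas without CK1, CK3 or HT2 it was 14, 8 and 10.

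**Figure D1:**
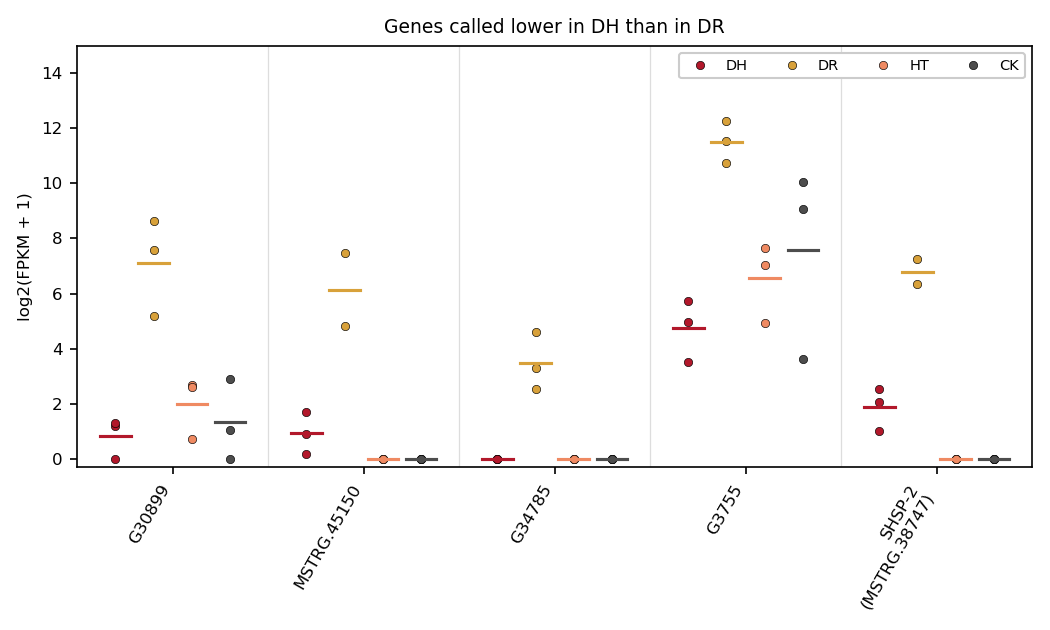
Level of the 5 genes called lower in DH than in DR, as log2(FPKM + 1) (vertical axis), with 1 point per library and a bar at the mean of each group, for DH, DR, HT and CK from left to right. MSTRG.45150 and SHSP-2 have 2 DR points because DR2 gives no value. In all 5 genes every DH point lies below every DR point, and 3 of them are at 0 in every HT and CK library.

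The genes of chlorophyll synthesis had a low median, and none of them passed the test. Of 6 tested members (CRD1, CHLH and GUN4), all had a difference below 0 (8944 of all 12295 genes did). An unadjusted p under 0.05 was found in 5 of them (3.29% of all genes were lower at that p). The median of all 6 was -2.56 against -0.40 for all genes. In the 4 members with a value in all 6 libraries, every DH library lay below every DR library, which held for 15.9% of all genes. CRD1 is the cyclase that closes the fifth ring of the chlorophyll skeleton, CHLH the magnesium chelatase subunit that starts the chlorophyll branch, and GUN4 the protein that activates that chelatase.

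CRD1 G16398 had 44.0, 15.8 and 286 FPKM in DH1, DH2 and DH3, against 687, 888 and 1718 FPKM in DR1, DR2 and DR3, without overlap (-4.08 ± 1.10 SE, limma unadjusted p = 0.00108, adjusted p = 0.415). CRD1 G16412 followed it library by library, at 15.2, 7.38 and 130 FPKM in DH and 274, 361 and 651 FPKM in DR (-3.95 ± 1.04, adjusted p = 0.388). Another CRD1 copy, G14909, was weak, with 0.27, 0 and 0.40 FPKM in DH and 4.23, 3.40 and 12.5 FPKM in DR. In all 3 copies DR3 was the highest DR library and DH3 the highest DH library. CHLH G26280 was listed at 0.17, 0 and 0 FPKM in DH and at 2.66, 2.12 and 23.7 FPKM in DR (-2.64 ± 0.85, adjusted p = 0.756). GUN4 (MSTRG.41460) was the exception in overlap, with 26.0, 3.73 and 18.6 FPKM in DH and 23.1 and 109 FPKM in DR1 and DR3 (-1.93 ± 1.11). In unstressed plants the 2 abundant CRD1 copies had 3504, 1211 and 533 FPKM (G16398) and 1202, 569 and 510 FPKM (G16412), so that DR overlapped with CK and DH lay below both.

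The Calvin cycle, which fixes carbon dioxide, and photorespiration stood beside it: 8 of 8 tested members had a difference below 0 (8944 of all 12295 genes did). Their median was -2.09 and 0 were called. In 7 of 8 every DH library lay below every DR library (15.9% of all genes did). At1g32060, phosphoribulokinase, which makes the acceptor of carbon dioxide, had 28.9, 12.9 and 145 FPKM in DH1, DH2 and DH3 and 177, 174 and 649 FPKM in DR1, DR2 and DR3 (-2.79 ± 1.13 SE, limma unadjusted p = 0.0208). At1g56190, a chloroplast phosphoglycerate kinase, had 1.83, 0.22 and 1.12 FPKM in DH and 5.04, 5.47 and 44.4 FPKM in DR. The same held for FBA2, an aldolase, with 0.48, 0 and 0.71 FPKM in DH and 2.66, 5.71 and 45.3 FPKM in DR. GAPB, a subunit of the chloroplast glyceraldehyde-3-phosphate dehydrogenase, was at 0.43, 0 and 0 FPKM in DH and 1.54, 1.44 and 18.8 FPKM in DR.

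DR3 was the highest drought library in each of these 4 genes, and without it the median of the list was -1.61. Less the median of all genes, the median of the list was -2.30 to -1.32 on the log2 scale under the 26 alternatives, and that of chlorophyll synthesis -3.54 to -1.55. Not all of these alternatives can move such a median. Leaving out single CK or HT libraries, fitting DH and DR alone and adjusted p alone gave the main values. Leaving out CK3, HT2 and DH2 together repeated the values without DH2. Since the members are in part the leaf markers, the leaf marker sums above move with both lists, and their part in the result was not tested. Of genes in no list, FBA5, another aldolase, had 4.16, 0 and 0.94 FPKM in DH and 88.1, 8.93 and 77.8 FPKM in DR (-4.25 ± 1.48, adjusted p = 0.88). AMT1-2, an ammonium transporter, had 10.7, 2.2 and 10.7 FPKM in DH and 102, 115 and 116 FPKM in DR (-3.88 ± 1.14, adjusted p = 0.58), with HT at 11, 2.30 and 10.2 FPKM. Its DR libraries were close to each other, and its DH and HT libraries lay side by side well below them. CK had 591, 165 and 10.1 FPKM, so that CK3 lay within the range of DH and of HT, and HT and CK overlapped.

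**Figure D2:**
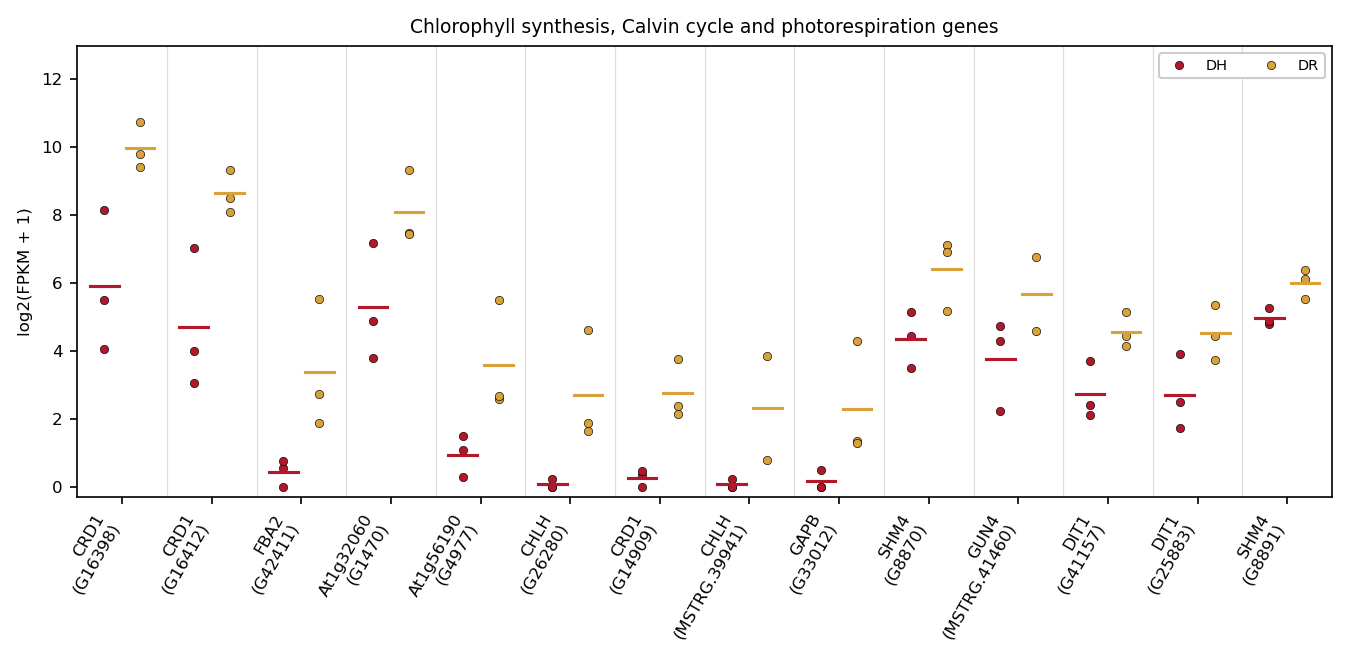
Level of the 14 tested genes of chlorophyll synthesis, the Calvin cycle and photorespiration, as log2(FPKM + 1) (vertical axis), with 1 point per library and a bar at the group mean, DH to the left of DR in each gene. The means of DH lie below those of DR in all 14, and the groups overlap in GUN4 and in DIT1 G25883.

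Heat shock chaperones split into 2 kinds. Of 13 tested members, 9 had a difference above 0 (27.2% of all genes did) and 4 below, with a median of 0.74 against -0.40, and the only member that passed the test was the SHSP-2 locus that was lower. Among the 7 members with a value in all 6 libraries, none had all DH libraries above all DR libraries (0.473% of all genes did) or below them (15.9%). HSP15.7 (G27775), a small heat shock protein of peroxisomes, had 259, 20.5 and 105 FPKM in DH1, DH2 and DH3 and 35.4, 1.16 and 10.8 FPKM in DR1, DR2 and DR3 (3.10 ± 1.15 SE, limma unadjusted p = 0.0123, with an adjusted p of 1). Its DH2 value lay below that of DR1, and the other DH libraries above all of DR. HSP17.5-M (MSTRG.30592), another small heat shock protein, had 71.4, 6.76 and 62.5 FPKM in DH and 0.76 and 4.52 FPKM in DR1 and DR3 (3.40 ± 1.41), with every DH library above the 2 DR libraries that have a value, and the locus MSTRG.30591 had 67.7, 4.89 and 66.0 FPKM in DH and 3.97 and 12 FPKM in DR1 and DR3 (1.9 ± 1.43).

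HSP21 and HSP17.4B differed less by value than these. HSP21 (MSTRG.27569), the chloroplast small heat shock protein, had 147, 86.9 and 833 FPKM in DH and 72.1 and 422 FPKM in DR1 and DR3, a difference of 0.33 ± 1.28 SE whose 95% interval runs from -2.31 to 2.98. In CK it was nearly absent, at 1.13, 0 and 0 FPKM, and in HT it had 706, 49.1 and 720 FPKM, the largest rise of any gene with a symbol in HT against CK (7.84, limma adjusted p = 0.00148). HSP17.4B, a class III small heat shock protein, had 134, 17.9 and 25.7 FPKM in DH and 43.8 and 28.5 FPKM in DR1 and DR3 at the locus MSTRG.37536, and 64.1, 3.96 and 13.8 FPKM in DH and 25.8, 1.8 and 12.7 FPKM in DR at G39305.

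The 70-kDa chaperones were between these. HSP70-5 (G13246) had 88.6, 6.58 and 16.2 FPKM in DH and 5.36, 3.23 and 18.1 FPKM in DR (1.5 ± 1.03 SE), and the stromal HSP70 (G9639) 12.6, 4.18 and 7.20 FPKM in DH and 8.73, 1 and 3.74 FPKM in DR (0.88 ± 0.90). HSP22 (G36033) had 3.98, 0.25 and 4.53 FPKM in DH and 0.62, 0.26 and 2.59 FPKM in DR. The chaperones of the endoplasmic reticulum, HSP90 (G17562, described as an endoplasmin homolog) and CAL1 (calreticulin), stayed at 1.71 FPKM or less in all 6 libraries.

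Of the regulators, MBF1C (G15814), a transcriptional coactivator needed for tolerance of heat in Arabidopsis, was the most abundant, with 4805, 614 and 2342 FPKM in DH1, DH2 and DH3, against 514, 489 and 677 FPKM in DR1, DR2 and DR3 (1.78 ± 0.98 SE, 3.43-fold higher on the FPKM + 1 scale, limma unadjusted p = 0.0804). DH1 and DH3 exceeded every DR library, and DH2 fell between DR1 and DR3. HT had 2954, 2087 and 1073 FPKM and CK 124, 220 and 119 FPKM, so the DR libraries were above all of CK and below all of HT. HSF24 (G19416), a heat shock factor, had 9.46, 1.78 and 2.91 FPKM in DH and 3.37, 1.44 and 5.68 FPKM in DR.

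**Figure D3:**
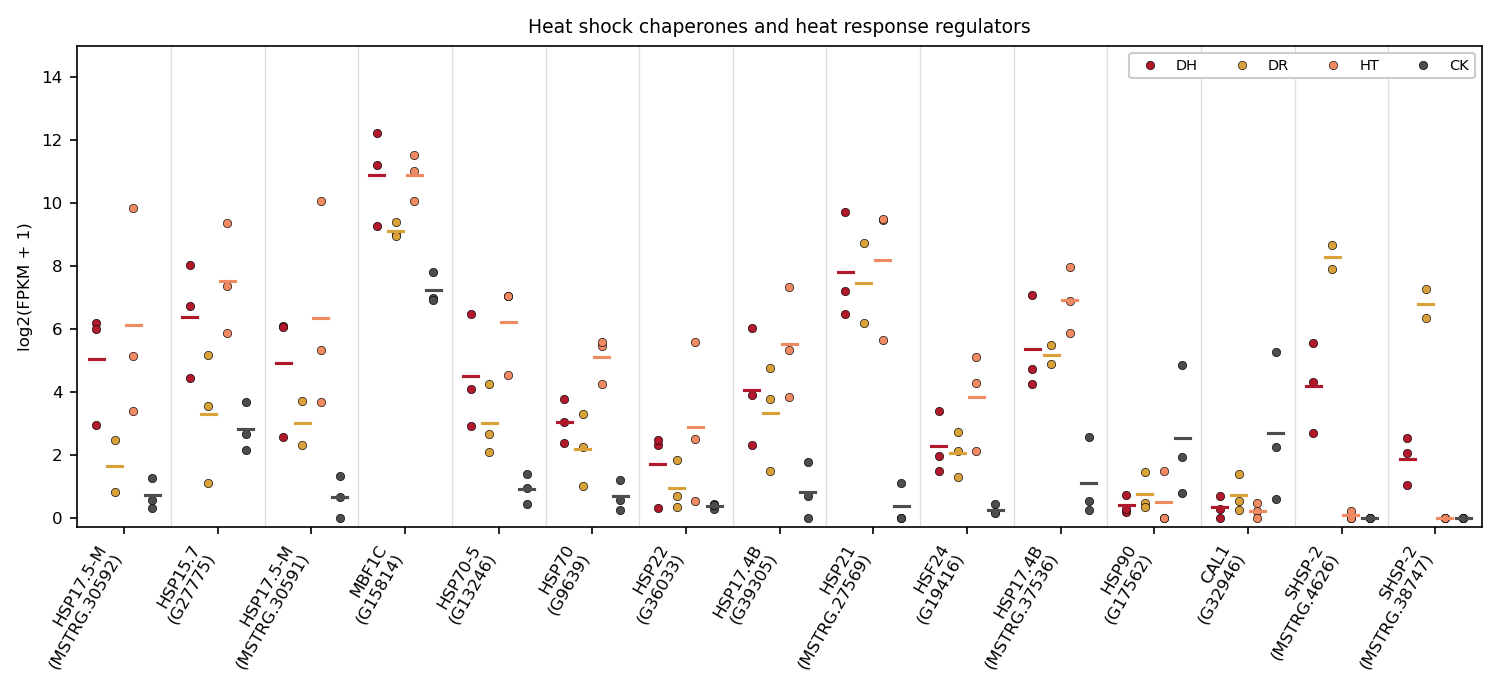
Level of the 13 tested heat shock chaperones and 2 heat response regulators, as log2(FPKM + 1) (vertical axis), ordered from the largest to the smallest DH minus DR, with 1 point per library and a bar at the group mean for DH, DR, HT and CK from left to right. The means of DH lie above those of DR in 11 of the 15 genes, while both SHSP-2 loci at the right are high in DR, lower in DH and at or near 0 in HT and CK.

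The genes that heat moved without drought come from other libraries and can be read in DH against DR, although all groups share 1 estimate of the spread. In HT against CK, 70 genes (0.569%) were called higher and 58 (0.472%) lower. Of the 70 genes higher in HT, 50 had a difference above 0 in DH against DR (27.2% of all genes did), with a median of 0.65 against -0.40. Of 51 with a value in all 6 libraries, the DH libraries lay above all of DR in 3 (0.473% of all genes did) and below in 4 (15.9%). In the rest the groups overlapped, and 0 of the 70 were called in DH against DR. Less the DR mean of each gene, the median of these genes was 1.72, -0.38 and 0.24 in DH1, DH2 and DH3, where all genes tested had 0.04, -0.80 and -0.54. DH1 thus had the highest values. Without DH1 the median was -0.09 over a list of 66 genes, where all genes tested had -0.64. It was -0.11 when HT2 was left out and 321 genes formed the list, where all genes tested had -0.40.

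Of the 58 genes lower in HT, 2 had a difference above 0 in DH against DR (27.2% of all genes did) and 56 below. Their median was -1.30, and in 21 of 52 the DH libraries lay below all of DR (15.9% of all genes did), though 0 were called. Other settings formed their own lists of genes lower in HT, so the genes differ. The median was then -0.79 with upper-quartile (305 genes), -0.55 with quantile (119 genes) and -0.62 with median-of-ratios scaling (149 genes). With a pseudocount of 0.1 it was -2.02 (43 genes). Less the DR mean, the median of the 58 genes was -0.90, -1.23 and -1.10 in DH1, DH2 and DH3. On the log2 scale the median level of these 58 genes was 0.81, 0.60 and 1.22 in DH, 3.28, 1.99 and 2.95 in DR, 1.88, 1.34 and 1.45 in HT and 7.08, 6.43 and 6.34 in CK. Every DH median was below every DR median. Every DR median was also below every CK median. These genes were chosen as higher in CK than in HT, so the height of CK above the other groups is in part fixed by that choice.

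Among genes with a symbol that fell most in HT were those of phenylpropanoids and flavonoids, the pathway of lignin and of the purple pigment. PALA, phenylalanine ammonia-lyase at its entry, had 0.31, 0.50 and 0.09 FPKM in DH and 2.78, 0.41 and 5.15 FPKM in DR, against 391, 127 and 35.6 FPKM in CK. CHSE, a chalcone synthase, had 0.15, 0 and 0.17 FPKM in DH and 9.10, 0.47 and 0.42 FPKM in DR, against 640, 45.4 and 2.99 FPKM in CK. Both were close to the bottom of the scale under drought alone as well as in DH. For the 10 tested genes of the shikimate and phenylpropanoid list the difference was below 0 in all 10 (median -0.88, 0 called), and for the 6 flavonoid genes in 5 (median -1.04, 0 called). Of all 12295 genes, 8944 had a difference below 0.

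Whether heat acted differently with and without drought was tested as (DH minus DR) minus (HT minus CK). By limma 0 genes (0%) passed. Unadjusted, 82 genes were above 0 and 565 below at a p under 0.05, while the fit with library weights called 69. The side-by-side values show how far apart the 2 effects could lie without passing: HSP21 had 0.33 in DH against DR and 7.84 in HT against CK, and RAP2-3, an ethylene response factor, 0.46 and 5.68. Both genes were named for their large rise in HT, a choice that by itself favours a wide gap. RAP2-3 had 1922, 395 and 624 FPKM in DH and 836, 363 and 603 FPKM in DR, beside 827, 1370 and 186 FPKM in HT and 8.56, 17.9 and 7.71 FPKM in CK.

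**Figure D4:**
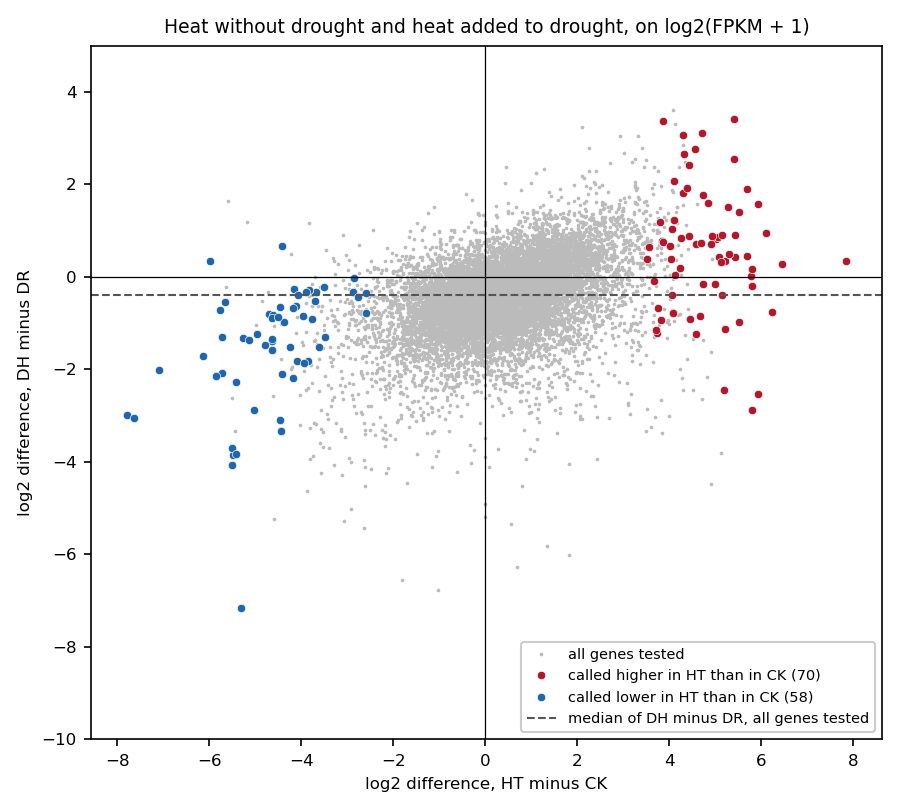
Log2 difference of each of the 12295 genes tested in HT minus CK (horizontal axis) and in DH minus DR (vertical axis), both on log2(FPKM + 1), with the 70 genes called higher and the 58 called lower in HT marked. Of the marked genes 50 of the 70 lie above 0 on the vertical axis and 56 of the 58 below it, and the dashed line is the median of all genes in DH minus DR, -0.40.

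Defence and nitrogen genes were mostly lower by value in DH than in DR, as were 8944 of all 12295 genes tested. LTP1 (G25650), a lipid transfer protein, had 759, 589 and 1424 FPKM in DH1, DH2 and DH3 and 2480, 4470 and 8923 FPKM in DR1, DR2 and DR3, without overlap (-2.42 ± 0.99 SE, limma unadjusted p = 0.0221, with an adjusted p of 1). It was abundant without drought too, at 404, 798 and 2821 FPKM in HT and 443, 219.6 and 235 FPKM in CK. CHIT1B, a basic endochitinase that attacks fungal walls, had 1148, 17.6 and 700 FPKM in DH and 1102, 1360 and 2479 FPKM in DR at G27895, and 721, 14.4 and 532 FPKM in DH and 698, 767 and 1783 FPKM in DR at G47455. DH2 was far below the rest at both loci, and DH1 was level with DR1. Of the 10 tested genes of the defence list, 9 had a difference below 0 (median -1.08, 0 called).

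RAMDAZC7 (G35594), described as a cysteine proteinase inhibitor, was at 0.69, 0.21 and 0.95 FPKM in DH and 7.25, 5.39 and 24.7 FPKM in DR (-2.80 ± 0.72 SE, limma unadjusted p = 0.000664, adjusted p = 0.327). ARGAH1 (G7764), a mitochondrial arginase, which releases urea from arginine, had 0.61, 0 and 0.62 FPKM in DH and 2.73, 6.42 and 14.8 FPKM in DR (-2.46 ± 0.69, adjusted p = 0.506). Both were at 0.31 FPKM or less in every CK library. In HT, RAMDAZC7 was at 0, 0 and 0.81 FPKM and ARGAH1 at 0, 0 and 1.68 FPKM, so that in both genes DR was above all other libraries. Neither gene would have passed the filter without the DR libraries, the group where both are high. Their p-values and the order of the groups therefore carry no weight of their own. All 4 tested genes of the arginase and amino acid list had a difference below 0 (median -1.88, 0 called), as did 8944 of all 12295 genes.

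Of 10 tested genes of abscisic acid, raffinose and dehydration, 7 had a difference above 0 (27.2% of all genes did) and 3 below, and 0 were called. Their median was 0.18 against -0.40 for all genes. Less the median of all genes it was 0.23 to 1.33 under the 26 alternatives, of which those that leave out single CK or HT libraries cannot move it. Without that subtraction it ran from -0.25 to 1.10 with single libraries left out. RFS6 (G41031), a raffinose synthase, had 94.8, 3.06 and 12.5 FPKM in DH and 9.81, 2.50 and 4.93 FPKM in DR (1.51 ± 1.02 SE, 95% interval -0.59 to 3.62). RAB28, a dehydration protein of the LEA family, had 17.2, 2.01 and 1.54 FPKM in DH and 2.81, 0 and 0 FPKM in DR (1.73 ± 0.84). In both genes DH1 was the highest library, and the other DH libraries were near DR.

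Of the 6 tested genes of ethylene and other stress regulators, 5 had a difference above 0 (27.2% of all genes did) and 1 below (median 0.57, 0 called). Without DH1 the median was -0.26, against -0.64 for all genes. Less the median of all genes it was 0.38 to 1.5 under the 26 alternatives, not all of which can move it. ERF071, an ethylene response factor like RAP2-3, had 496, 68.7 and 93.7 FPKM in DH and 125, 42.0 and 106 FPKM in DR, and WRKY6 (MSTRG.26557) had 67.9, 2.31 and 10.4 FPKM in DH and 5.74 and 6.66 FPKM in DR1 and DR3. DH1 was the highest of both groups in both genes. For ERF071 the other DH libraries lay within the range of DR, and for WRKY6, which had no value in DR2, DH2 lay below DR and DH3 above it.

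Jasmonate is made by oxidation of chloroplast lipids. Of the 5 tested genes of the jasmonate and lipid oxidation list, 2 had a difference above 0 (27.2% of all genes did) and 3 below (median -1.03, 0 called). Those below were both OPR3 copies and LOX2.1, a lipoxygenase that the paper places in jasmonate synthesis. OPR3, the reductase of its synthesis, had 56.3, 1.61 and 6.17 FPKM in DH and 23.1, 117 and 76.2 FPKM in DR at G20440 (-2.56 ± 1.10 SE, limma unadjusted p = 0.0288), and 32.0, 0.78 and 4.66 FPKM in DH and 10.6, 49.5 and 32.4 FPKM in DR at G11747. ACX2, an acyl-CoA oxidase of peroxisomes, had 450, 24.4 and 149 FPKM in DH and 32.9, 26.1 and 72.0 FPKM in DR (1.56 ± 1.08). Neither the OPR3 copies nor ACX2 passed the adjusted test. At both OPR3 loci the groups overlapped through DH1, which lay above DR1, and DH2 and DH3 lay below every DR library.

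The 2 tested genes of tyrosine breakdown went opposite ways, 1 above 0 (27.2% of all genes were) and 1 below (median -0.12, 0 called). HPD, the enzyme of tyrosine breakdown that makes homogentisate, had 1755, 146 and 561 FPKM in DH and 318, 153 and 337 FPKM in DR (1.04 ± 1.02 SE). HGO (G234), described as homogentisate 1,2-dioxygenase, had 17.6, 0.62 and 11.55 FPKM in DH and 9.23, 10.2 and 46.9 FPKM in DR (-1.28 ± 1.17). The groups overlapped in both genes.

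Aquaporins, the water channels of membranes, had differences below 0 in 3 of 3 genes (median -1.68, 0 called). Of all 12295 genes, 8944 did. PIP2-7 (G27911), of the plasma membrane, had 28.3, 0.31 and 5.59 FPKM in DH and 170, 17.2 and 303 FPKM in DR (-3.96 ± 1.64 SE, limma unadjusted p = 0.0239). It overlapped only in DH1 and DR2. Genes of the cuticle, the outer wax and cutin layer of leaves, were lower by value in 5 of 5 (median -2.36, 0 called): CYP86A22, a fatty acid hydroxylase, had 6.82, 0.23 and 0.84 FPKM in DH and 34.3, 16.8 and 16.7 FPKM in DR (-3.10 ± 1.09), and MYB106, a regulator of the cuticle in Arabidopsis, had 1.02, 0 and 1.9 FPKM in DH and 7.84 and 8.75 FPKM in DR1 and DR3. These are genes of the epidermis. Like the leaf marker sums they were lower by value in DH, but not library by library. CYP86A22 was highest in DH1 and DR1, and the leaf marker sums in DH3 and DR3. The part of the leaf share in this difference was not tested.

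Genes of fat and carbon use overlapped between the groups. MLS, malate synthase of the glyoxylate cycle, which turns fat into sugar, had 1752, 116 and 1265 FPKM in DH and 931, 1524 and 1408 FPKM in DR (-0.98 ± 1.14 SE, 95% interval -3.33 to 1.37). ICL2 (G23318), isocitrate lyase of the same cycle, had 1395, 76.6 and 686 FPKM in DH and 403, 97.9 and 307 FPKM in DR (0.86 ± 1.25). Both were abundant in 2 of the 3 DH libraries and low in DH2. PAO, pheophorbide a oxygenase, which opens the ring during chlorophyll breakdown, had 50.4, 22.9 and 77.5 FPKM in DH and 52.2, 37.5 and 48.4 FPKM in DR at G37287 (-0.02 ± 0.95, 95% interval -1.99 to 1.94), and 135, 57.6 and 108 FPKM in DH and 148, 26.2 and 54.5 FPKM in DR at G37418. The groups overlapped at both PAO loci.

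Growth genes had smaller differences than the leaf genes. All 10 tested genes of wall loosening (median -0.95), all 7 of cellulose and microtubules (median -1.20) and all 3 of the methyl cycle (median -0.77) had differences below 0, and 0 were called. Of all 12295 genes, 8944 had a difference below 0. TUBA3 (G2000), an alpha tubulin, had 3.50, 0.85 and 1.62 FPKM in DH and 6.16, 17.2 and 25.4 FPKM in DR. The 8 tested genes of starch and sugars went both ways, 4 above 0 and 4 below, and so did the 10 wall polysaccharide hydrolases, 5 and 5. BAM1, a beta-amylase, had 324, 6.82 and 24.6 FPKM in DH and 33.7 and 6.43 FPKM in DR1 and DR3 at MSTRG.8438, with DH1 alone well above the rest. MAN2 (MSTRG.33887), a mannanase that cuts wall mannans, had 553, 13.1 and 76.8 FPKM in DH and 10.8 and 34.8 FPKM in DR1 and DR3 (2.04 ± 1.36 SE). XTH32 (G9843), an enzyme that cuts and rejoins xyloglucan, had 129, 5.63 and 10.4 FPKM in DH and 49.0, 430 and 179 FPKM in DR, and overlapped through DH1 and DR1.

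**Figure D5:**
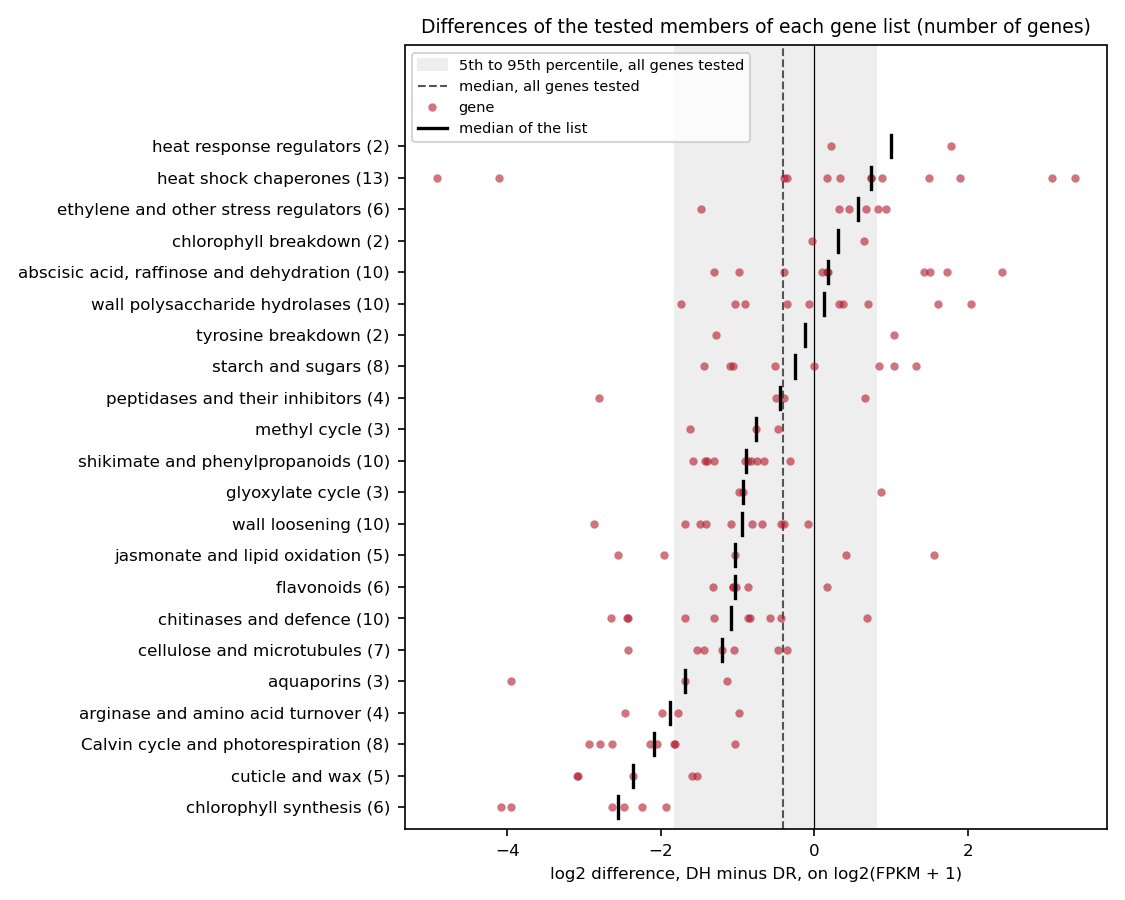
Log2 difference DH minus DR on log2(FPKM + 1) (horizontal axis) of each tested member of 22 gene lists (1 point per gene, number of genes in brackets), with a black bar at the median of the list, a dashed line at the median of all genes tested, -0.40, and a grey band from the 5th to the 95th percentile of all genes. Medians run from -2.56 for chlorophyll synthesis to 1 for heat response regulators, and both SHSP-2 loci stand far to the left of the other chaperones.

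Of 163 genes with a symbol and a value in all 6 libraries, 0 had all DH libraries above all DR libraries (0.473% of all genes did) and 58 had them below (15.9%), in a set chosen by the study on these libraries. Of 40 with no value in DR2, all DH libraries lay above DR1 and DR3 in 2 and below in 15, where all 1087 such genes gave 35 and 243. The 2 are HSP17.5-M (MSTRG.30592) and UVR3 (MSTRG.45901), which is named after its values were seen and had 39.0, 23.2 and 23.9 FPKM in DH and 4.36 and 7.8 FPKM in DR1 and DR3. With a value in all 6 libraries, the highest without overlap were 2 genes with no symbol. G17323 had 95.9, 6.22 and 28.3 FPKM in DH and 3.77, 0.74 and 1.98 FPKM in DR (3.23 ± 0.99 SE, limma unadjusted p = 0.0032, adjusted p = 0.664). G1476 had 365, 96.7 and 67.2 FPKM in DH and 16.0, 11.2 and 19.2 FPKM in DR (3.06 ± 0.92, adjusted p = 0.6), with 42.2, 63.2 and 84.6 FPKM in HT and 4.53, 1.22 and 1.58 FPKM in CK. It was not called in DH against DR but was called higher in HT than in CK (4.29, adjusted p = 0.0258), and its 4 groups stood in the order CK, DR, HT and DH by mean.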

How the data were processed

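The 12 libraries, 3 per group, came from poly(A) RNA, with leaves and storage roots pooled. Per the labels, the tools named are cutadapt 1.9, HISAT2 2.0.4, StringTie 1.3.4d, DESeq2 and edgeR. The paper's methods name Trimmomatic in place of cutadapt, so the trimming tool is not settled. The authors aligned reads to a sweetpotato genome and deposited 1 table of FPKM per library, corrected for gene length and library size and given to 2 decimals. FPKM hold no counts, so the depth behind a value is unknown and no count test was run. Library totals were 1294466 to 1472561 FPKM in DH and 1245287 to 1296429 in DR.

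Groups came from the sample titles. In R 4.3.3, limma 3.58.1 (eBayes with trend, two-sided) was fitted on log2(FPKM + 1) with all 12 libraries, for genes whose FPKM reached 1 in 3 or more libraries. The contrasts were DH - DR, HT - CK and their difference. The median prior degrees of freedom were 16.6. The Benjamini-Hochberg adjustment covered all 12295 genes, and a call needed an adjusted p below 0.05 with a log2 difference larger than 1 in size. The fit was run on simulated data with the same spread for every gene and with levels raised away from 0. That setting differs from these libraries, so it does not show how the fit performs on them. Counts, medians and figures were made in Python 3.11.15 with pandas 2.3.3 and matplotlib 3.10.9.

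The members, gene lists and tests were chosen with earlier results of these data known. Symbols came from the study's supplementary gene tables. Genes named are all those called, up to 10 with a symbol and 2 without one at each end among genes whose groups do not overlap, all chaperones and heat regulators, up to 4 per other list and up to 5 per direction in HT - CK, of which not all are written out. GUN4 and DIT1, outside that rule, are named as list members. Alternatives were a pseudocount of 0.1, no filter, a mean FPKM of at least 5, only genes listed in all libraries, 5 scalings, a fit of DH and DR alone, the replicate number as a block, array weights, adjusted p alone, and libraries left out. Medians of gene lists under these alternatives were added after the values were seen.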

Additional observations from a re-analysis of the deposited data

How the results depend on the processing

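The alternatives changed the filter, the pseudocount, the scaling, the libraries or the model, one at a time. Of the genes called in DH against DR, 5 were lower and 0 higher. The count lower was 0 with a pseudocount of 0.1, with no filter and with a mean FPKM of at least 5, 1 with genes listed in all 12 libraries, 2 with upper-quartile, quantile or median-of-ratios scaling, 3 with scaling without the 10 most abundant genes and 3 with the DH and DR libraries only. Leaving out CK3, HT2 and DH2 together gave 2. With array weights it was 293 lower and 8 higher. With single libraries left out it ran from 0 (without DH1, DH2, DH3 or HT1) to 14 (without CK1), and was 1 without DR1, DR2, DR3 or CK2. The test of heat by drought called 0 genes, against 2 with a pseudocount of 0.1, 69 with array weights, 3 with CK3, HT2 and DH2 left out together, and 0 to 50 with single libraries left out, the 50 without HT2. The cause of these changes was not tested.

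Fits that kept HT and CK formed the lists of genes raised and lowered by HT anew, so the genes differ between settings. Those lowered by HT numbered 58 in the main fit, 6 with no filter and 305 with upper-quartile scaling. The median difference of genes raised by HT was 0.65, and ran from -0.11 (without HT2) to 1.20 (without DR1) with single libraries left out. That of genes lowered by HT was -1.30. It was -2.02 with a pseudocount of 0.1, -1.05 with no filter, -0.79 with upper-quartile scaling, -0.55 with quantile scaling, -0.62 with median-of-ratios scaling, -0.80 with scaling without the 10 most abundant genes and -0.98 with the replicate block, and ran from -1.61 to -0.74 with single libraries left out. Scaling moved the median of all genes by over 0.1, so these values are relative to it: -0.40 as deposited, -0.27 with upper-quartile, 0.02 with quantile, -0.14 with median-of-ratios scaling and -0.06 without the 10 most abundant genes.

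Among the named genes, PAO (G37287) was -0.02, but 0.21 with upper-quartile, 0.41 with quantile and 0.52 with median-of-ratios scaling, 0.69 without the 10 most abundant genes, 0.32 with array weights, 0.45 with CK3, HT2 and DH2 left out together, and -0.41 to 0.45 with single libraries left out. HSP90 (G17562) was 0.065 with quantile scaling. Array weights gave HSF24 (G19416) -0.085 and HSP17.4B (MSTRG.37536) -0.15, and MLS (G42670) was 0.24 with the 3 libraries left out. With single libraries left out, the ranges that crossed 0 were -0.33 to 0.63 for HSF24, -0.70 to 0.72 for HSP17.4B (MSTRG.37536), -0.24 to 1.62 for HSP17.4B (G39305), -0.94 to 1.599 for HSP21 (MSTRG.27569), -0.19 to 0.95 for RAP2-3 (G11018), -0.036 to 1.38 for ERF071 (G13450), -0.23 to 1.96 for WRKY6 (MSTRG.26557), -0.00 to 2.08 for ICL2 (G23318), -0.18 to 2.50 for BAM1 (MSTRG.8438) and -1.71 to 0.24 for MLS.

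The replicate numbers did not pair the libraries: same-numbered DH and DR libraries had correlations of deviations of 0.10, -0.07 and 0.27, and of the DH libraries DH1 correlated best with its own number. With the replicate block, 5 genes were called lower. FPKM hold no read counts, so the depth behind low values is unknown.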
